A study of Mus musculus with 11 samples.

Results

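RNA polymerase II (Pol II) transcribes protein-coding genes, and 40 genes of its core machinery were described here across 11 RNA-seq libraries of mouse embryonic stem cells (ESCs). The genes were chosen by symbol and function and not by a measured value, though with earlier results of these data known. All 40 were among the 23284 genes of each deposited file. They encode the 12 Pol II subunits, 15 general initiation factors (TBP, TFIIA, TFIIB, TFIIE, TFIIF, TFIIH with its kinase module), 5 proteins of the kinase P-TEFb and of the 7SK particle that holds it inactive, 5 subunits of the Paf1 complex and 3 of the super elongation complex. The libraries formed 5 groups. Wild-type cells (WT) and cells with a triple knockout of the dioxygenase genes Tet1, Tet2 and Tet3 (TKO) were compared untreated (0 h) and treated for 4 h with 10 μg/ml α-amanitin, which makes 4 groups of 2 ribodepleted total RNA libraries. The paper names water as the vehicle control of the drug, and the labels call the 0 h libraries non-treated. No library of cells kept for 4 h with vehicle was included. The effect of the drug cannot be told apart from that of the 4 h. The fifth group was 3 libraries of polyadenylated RNA (polyA) from WT cells without the drug. All cells were grown on gelatin in medium with serum and leukemia inhibitory factor. The number of clones behind each genotype is not given in the sources used here, so other differences between the lines cannot be told apart from the loss of the Tet genes. The labels number the libraries of a group without saying that they came from separate cultures, and p-values then measure only the spread between these libraries, which may be technical.

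At a promoter, TBP and the general factors place Pol II at the start site, and TFIIH opens the DNA and phosphorylates the tail of the largest subunit, Rpb1. Pol II then pauses a short way into many genes until P-TEFb, the kinase Cdk9 with cyclin T1 or T2, releases it. Hexim1 and Larp7 keep part of P-TEFb inactive on the 7SK RNA, whereas the Paf1 complex and the super elongation complex act with the polymerase as it moves along the gene. α-Amanitin binds Rpb1, the product of Polr2a, and blocks the movement of the enzyme, so this set holds the target of the drug together with its partners. In ESCs, pausing and its release are known to operate at genes for self-renewal and development.

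Values are TPM, the length-corrected share of each transcript in its library scaled to a fixed total, so they can be set side by side between genes but cannot show a change shared by all transcripts. The TPM steps returned whole reads for 100.0% of the 19869 genes above 0, which gave 25507874 to 29781366 reads per ribodepleted library and 72639837 to 82129168 per polyA library. The 40 genes held 301 to 21414 reads each in the ribodepleted libraries. Deposited Tet1 was at 21.3 to 32.8 TPM in the 4 TKO libraries and 108.5 to 148 TPM in the 4 ribodepleted WT libraries, and Tet2 was at 5.91 to 8.32 TPM against 40.4 to 57.2 TPM, whereas Tet3 was at 1.06 to 1.64 TPM in all 8. The 10 ESC markers were above 1 TPM in every library. Fibroblast, endoderm and other lineage markers were summed separately by list, and the highest sum of any list in a library was 26.0 TPM. That was the list of epiblast, mesoderm and neural markers in WT cells at 0 h, in which Olig2 alone reached 19.4 TPM. On the second principal component of the ribodepleted libraries, which followed the treatment, TKO replicate 2 at 4 h lay at -15.0, beside the treated WT libraries, and TKO replicate 1 at -2.37.

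All 12 Pol II subunits and all 28 factors were expressed, at 18.7 to 238 TPM on average in untreated ribodepleted WT cells, with a median of 69.8 TPM against 19.6 TPM for all genes above 1 TPM. In these ribodepleted libraries the transcripts of the polymerase subunits were not present at even levels. Polr2a, the largest subunit and the part of the catalytic centre that α-amanitin contacts, stood at 45.3 and 40.6 TPM in the WT libraries at 0 h, while Polr2b, which forms the other side of that centre, stood at 201 and 191 TPM. Polr2j, a small assembly subunit, was the highest of the 7 subunits found in Pol II alone, at 205 and 204 TPM. Among the 5 subunits shared with Pol I and Pol III, Polr2e led the whole set at 237 and 238 TPM and Polr2l was the lowest gene of the set at 18.7 and 18.8 TPM. Polr2f and Polr2h, whose means of 206 TPM differed by less than their spread, stood just below Polr2e. Part of this order was not found in the WT polyA libraries. There Polr2a was at 114 TPM on average, Polr2b at 95.4 TPM and Polr2l at 82.8 TPM.

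In untreated ribodepleted WT cells, the factors that act on the polymerase were mostly lower than its subunits. In the WT polyA libraries the median of TFIIE and TFIIF, 132 TPM, lay above the 115 TPM of the subunits of Pol II alone. The shared subunits were at 176 TPM there, and the highest of the other factor medians was 75.6 TPM, for the Paf1 complex. Median deposited levels in untreated ribodepleted WT cells were 139 TPM for subunits of Pol II alone and 206 TPM for the shared subunits. The median was 81.7 TPM for TFIIE and TFIIF, 65.7 TPM for the Paf1 complex, 59.7 TPM for P-TEFb and the 7SK proteins, 55.9 TPM for TBP, TFIIA and TFIIB, and 50.4 TPM for TFIIH. Within TFIIH the core subunit Gtf2h1 was at 140 ± 5.42 TPM (SD, n = 2), above the kinase Cdk7 at 28.9 ± 0.671 TPM. Within P-TEFb, Cdk9 was at 28.3 ± 1.12 TPM, below both of its cyclins, with Ccnt1 at 59.7 ± 4.75 TPM and Ccnt2 at 82.0 ± 7.71 TPM. The super elongation complex ranged from Ell at 19.3 ± 1.59 TPM and Ell2 at 19.8 ± 0.433 TPM, which did not differ beyond their spread, to the scaffold Aff4 at 111 ± 7.65 TPM.

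**Figure D1:**
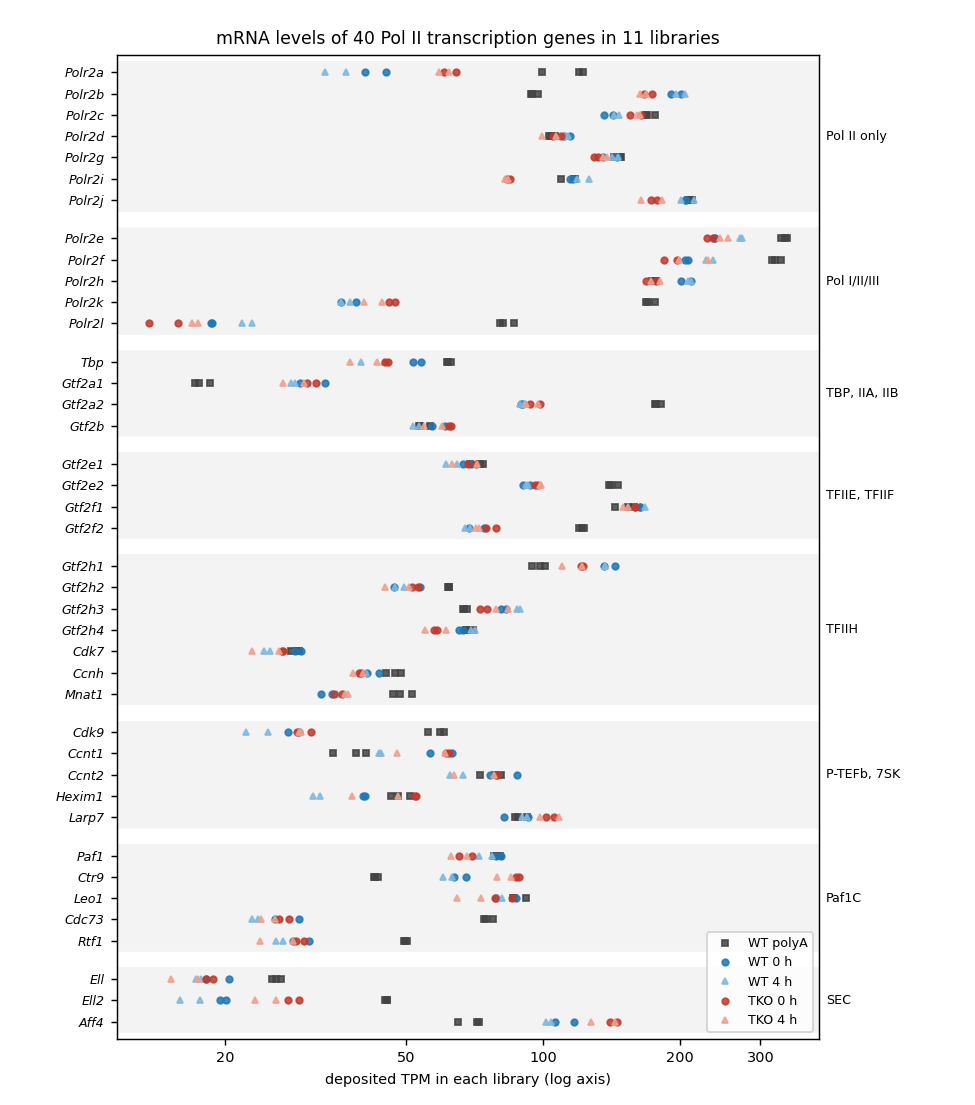
Deposited TPM (x axis, log scale) of the 40 genes (y axis, grouped by complex) in each of the 11 libraries, with 1 point per library. Polr2e is the highest gene in every group, at 238 TPM on average in WT at 0 h, and Polr2k and Polr2l are far higher in the polyA libraries than in the ribodepleted ones.

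The promoters of the set were rich in CpG dinucleotides, the sites at which DNA methylation, the substrate of the Tet enzymes on DNA, is found. RefSeq promoters (GRCm38.p6) matched 34 of the 40 genes, with 36 promoters. Over the 250 bases before the start they held a median of 21 CpG, ranging from 8 to 47, against a median of 6 over all 32851 promoters of the same length. The letters TATAAA, searched on both strands, were present in 4 of the 36 windows and in 12.4% of all promoters. The windows of Polr2a and Polr2i are shown because these subunits differed most between the genotypes, in opposite directions. They are written 5′ to 3′ on the strand of the gene, with each CpG in capitals. That of Polr2a is on the minus strand at chr11:69758634-69758883 and holds 23 CpG, and that of Polr2i is on the plus strand at chr7:30231824-30232073 and holds 21 CpG.
Polr2a: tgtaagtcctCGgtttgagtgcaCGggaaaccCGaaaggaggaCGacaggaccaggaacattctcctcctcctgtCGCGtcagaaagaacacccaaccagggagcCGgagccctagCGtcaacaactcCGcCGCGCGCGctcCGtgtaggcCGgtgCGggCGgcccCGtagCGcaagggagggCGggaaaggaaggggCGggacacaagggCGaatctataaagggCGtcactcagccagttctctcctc
Polr2i: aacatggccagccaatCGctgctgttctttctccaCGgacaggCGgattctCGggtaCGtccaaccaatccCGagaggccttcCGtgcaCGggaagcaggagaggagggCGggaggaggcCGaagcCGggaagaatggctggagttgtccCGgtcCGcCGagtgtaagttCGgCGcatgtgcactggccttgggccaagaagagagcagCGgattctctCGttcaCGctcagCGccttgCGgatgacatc
No methylation was measured in these libraries, so the letters describe the promoters only.

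TKO and WT cells were compared at each time to ask which of these genes differed with the genotype. For this, TPM were divided by a size factor per library, here called scaled TPM, and limma was fitted to log2(scaled TPM + 1) of 12467 genes. Higher and lower mean an adjusted p (Benjamini-Hochberg) below 0.05. At 0 h, Polr2a rose in TKO cells while 7 other Pol II subunits and 5 of the 7 TFIIH genes fell. Of the 40 genes 7 were higher and 14 lower, against 27.8% and 28.3% of all tested genes. At 4 h, 5 were higher and 22 lower, against 29.0% and 30.4% of all tested genes. The median difference of the set was -0.12 at 0 h and -0.17 at 4 h on the log2 scale, beside -0.020 and -0.0060 over all genes. Changes were small, with folds of TKO over WT from 0.683 for Polr2i to 1.35 for Polr2a at 0 h, and from 0.611 for Polr2i to 1.54 for Polr2a at 4 h. Cell type markers moved with the genotype too. Of the 10 ESC markers 2 were higher and 6 lower in TKO cells at 0 h, with a mean scaled TPM for Zfp42 of 490 in WT against 115 in TKO cells, Esrrb at 180 and 107, and Klf4 at 48.4 and 24.2. The 2 higher ones were Tdgf1, at 653 in WT and 716 in TKO, and Dppa5a, at 1586 and 1841. Of 5 tested epiblast, mesoderm and neural markers 1 was lower, Olig2 at 18.0 in WT and 0.040 in TKO. Another was higher, Fgf5 at 0.39 and 1.99. Of 5 tested fibroblast markers 2 were higher and 0 lower, with Col1a2 at 1.53 and 4.71. The part of these differences in the values of the set was not tested.

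The counts at 4 h moved with the scaling between libraries. On deposited TPM without size factors the median of all genes was shifted by 0.14 at 4 h. There 10 members were higher and 11 lower, where 5035 of all 12481 genes were higher and 2066 lower. At 0 h the deposited values gave 8 higher and 10 lower members, where 4168 of all genes were higher and 2191 lower. Size factors over all genes gave 5 and 19 members at 0 h, where 3197 of all 12465 genes were higher and 3973 lower. Relative to the median of all genes, 30 of the 40 lay below at 4 h and 27 at 0 h, with or without size factors, but only 24 and 22 after quantile normalisation. How many of all tested genes pass under every one of 19 alternative settings was not counted, so this rule does not set members apart. Among the 40, 12 genes passed in the same direction at both times under all 19. These were Polr2a, Ctr9, Ell2 and Aff4, which were higher in TKO cells, and Polr2b, Polr2h, Polr2i, Polr2j, Polr2l, Gtf2h1, Gtf2h4 and Paf1, which were lower. Of the lower genes Polr2b, Polr2h, Polr2i and Polr2j overlap another listed gene on the other strand. The strand setting of the counting is not given in the sources used here.

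**Figure D2:**
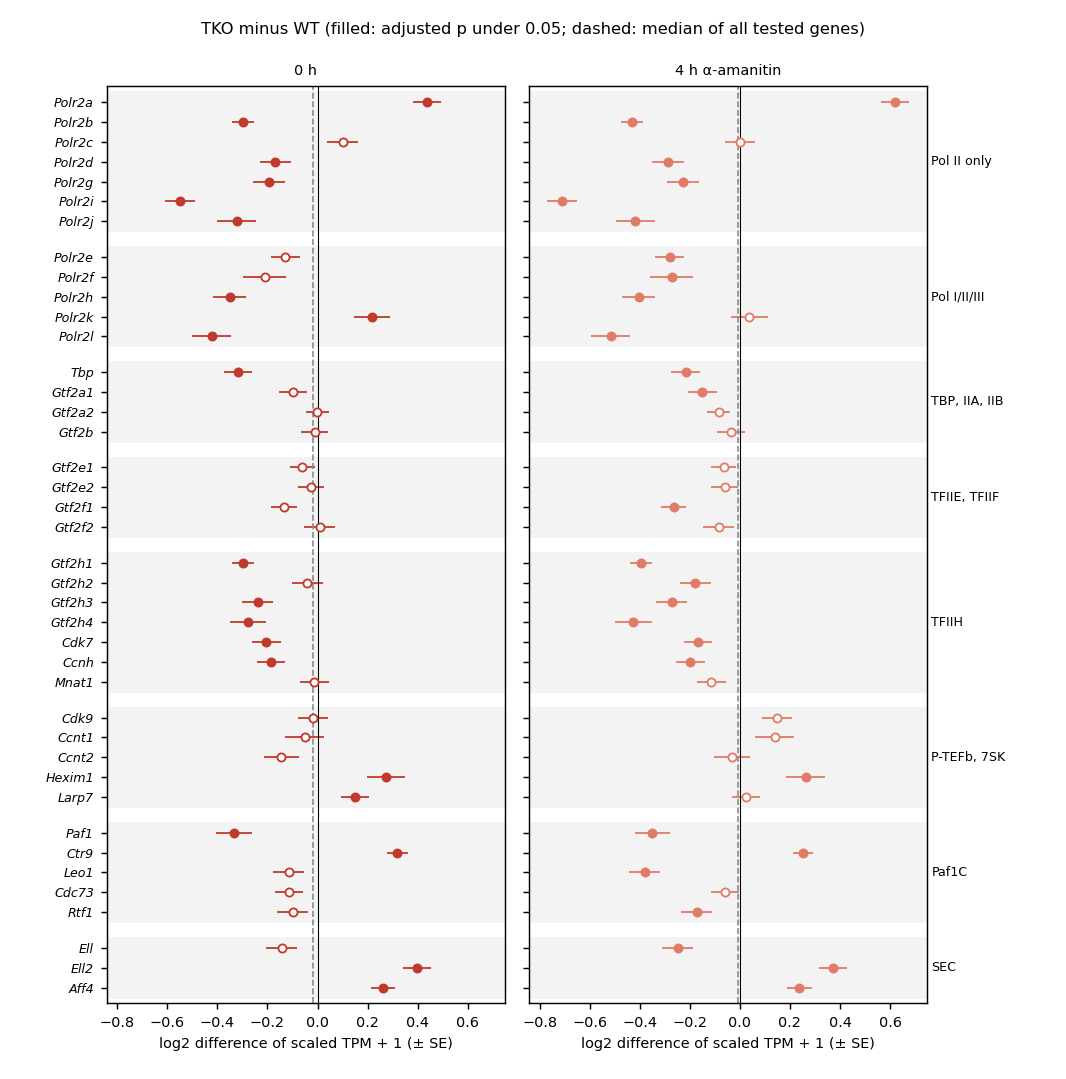
Difference between TKO and WT (x axis, log2 of scaled TPM + 1, ± SE) for the 40 genes (y axis) at 0 h (left) and after 4 h of α-amanitin (right), where filled points passed an adjusted p of 0.05 and the dashed line is the median of all tested genes. Polr2a lies farthest to the right, at 0.44 and 0.62, and Polr2i farthest to the left, at -0.55 and -0.71.

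Polr2a encodes Rpb1, whose long repeated tail is phosphorylated through the transcription cycle. At 0 h its scaled TPM was 43.9 and 41.0 in the WT libraries against 56.4 and 59.2 in the TKO libraries, and at 4 h it was 37.3 and 40.05 against 59.7 and 60.3. The TKO libraries were above the WT libraries at both times, with no overlap. The rise was 0.44 ± 0.056 (SE) at 0 h (limma, adjusted p = 0.000227), a fold of 1.35, and 0.62 ± 0.056 at 4 h (adjusted p = 2.82e-05), a fold of 1.54.

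Polr2i encodes a small subunit of Pol II alone that takes part in proofreading and start site choice, and it moved the other way. At 0 h it was at 111 and 117 scaled TPM in the WT libraries against 77.5 and 77.7 in the TKO libraries, and at 4 h at 142 and 129 against 79.2 and 85.6. Every TKO library was below every WT library. Polr2i fell by 0.55 ± 0.060 at 0 h (limma, adjusted p = 9.04e-05) and by 0.71 ± 0.060 at 4 h (adjusted p = 2.05e-05). It overlaps Tbcb on the other strand, and the strand setting of the counting is not given in the sources used here, so its reads and those of Tbcb cannot be told apart.

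The second largest subunit gene, Polr2b, was at 195 and 193 scaled TPM in WT against 161 and 154 in TKO at 0 h, and it fell by 0.30 ± 0.044 (limma, adjusted p = 0.000514). At 4 h the WT libraries were at 220 and 222 and the TKO libraries at 162 and 166, a fall of 0.43 ± 0.044 (adjusted p = 5.76e-05). The genes of the largest subunits, whose products together form the active centre, thus differed in opposite directions between the genotypes. Polr2b overlaps Igfbp7 on the other strand.

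Of the other subunits of Pol II alone, Polr2j fell by 0.32 ± 0.078 and 0.42 ± 0.078 at the respective times (limma, adjusted p = 0.00728 and 0.00172). Polr2d, which forms a stalk on the enzyme with the product of Polr2g, fell by 0.17 at 0 h (adjusted p = 0.0480) and by 0.29 at 4 h (adjusted p = 0.00405), and the first call was lost under 12 of the alternatives. Polr2g, the other stalk subunit, fell by 0.20 at 0 h and 0.23 at 4 h. Polr2c, a scaffold subunit, did not pass at either time, at 0.10 ± 0.061 and 0.0012 ± 0.061.

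The subunits shared by the 3 polymerases showed the same mixture. Polr2l was at 18.1 and 18.9 scaled TPM in WT against 14.6 and 12.5 in TKO at 0 h, a fall of 0.42 ± 0.078 (limma, adjusted p = 0.00183). At 4 h the WT libraries held 24.5 and 25.0 and the TKO libraries 16.3 and 17.8, a fall of 0.52 ± 0.078 (adjusted p = 0.000536). It was the gene with the fewest reads of the set. Polr2h fell by 0.35 ± 0.066 and 0.40 ± 0.066 (adjusted p = 0.00209 and 0.000847). Polr2e and Polr2f passed at 4 h only, with falls of 0.28 and 0.27, against -0.13 and -0.21 at 0 h, and the change between the times was not itself significant for either (interaction, adjusted p = 0.687 and 0.881). Polr2k alone of the 5 was higher, at 0.22 ± 0.073 at 0 h (adjusted p = 0.0316), a call lost when any 1 of the 4 libraries at 0 h was left out. At 4 h Polr2k was at 0.038 ± 0.073.

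Over the 12 subunits, 2 were higher and 7 lower at 0 h, and 1 was higher and 9 lower at 4 h. All tested genes gave 27.8% higher and 28.3% lower at 0 h, and 29.0% and 30.4% at 4 h. The other polymerases gave a comparable count. Of 19 genes for subunits found only in Pol I or Pol III, 1 was higher and 12 lower at 0 h, and 1 was higher and 11 lower at 4 h. The Pol I catalytic subunit gene Polr1a rose by 0.61 ± 0.042 at 0 h (limma, adjusted p = 7.75e-06), and Polr3gl, one of a pair of alternative Pol III subunits, fell by 1.42 ± 0.099 (adjusted p = 8.15e-06).

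**Figure D3:**
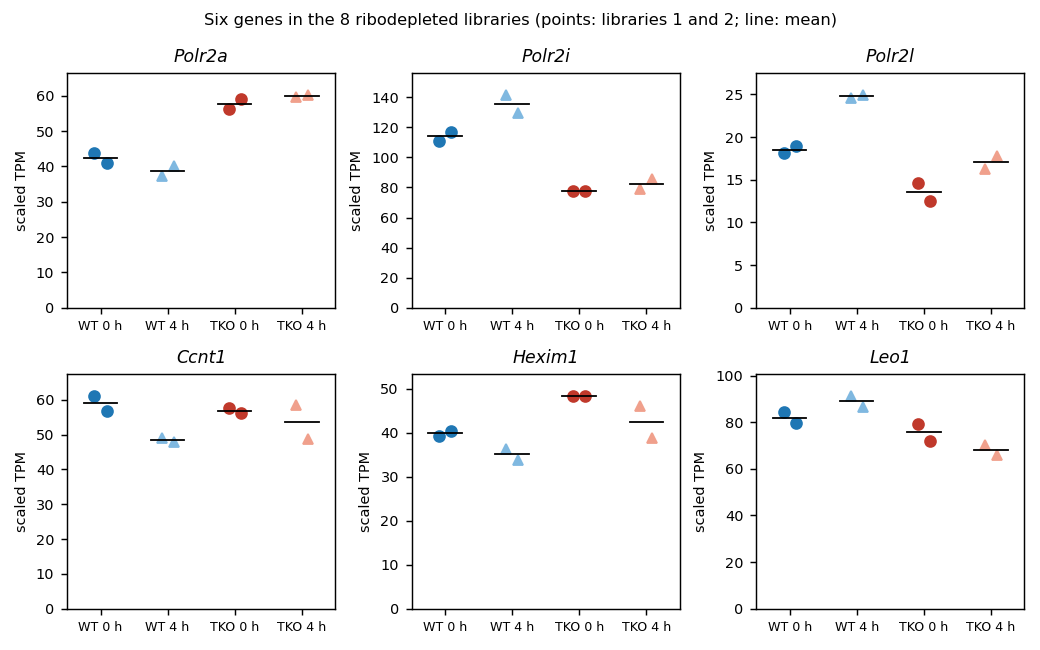
Scaled TPM (y axis, from 0) of Polr2a, Polr2i, Polr2l, Ccnt1, Hexim1 and Leo1 in the 8 ribodepleted libraries by group (x axis), with points for the 2 libraries and a line for their mean. Polr2a is at 56.4 to 60.3 in the TKO libraries and 37.3 to 43.9 in the WT libraries, and Polr2i is at 77.5 to 85.6 against 111 to 142.

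Among the initiation factors, TFIIH held the most lower genes; TFIIH was not tested against the other factors. TFIIH opens the promoter and carries the Cdk7 kinase, which phosphorylates the Pol II tail. Of its 7 genes in the set, 5 were lower and none higher at 0 h, and 6 were lower and none higher at 4 h. Lower genes made up 28.3% of all tested genes at 0 h and 30.4% at 4 h. Gtf2h1 was at 140 and 137 scaled TPM in WT against 113 and 111 in TKO at 0 h. It fell by 0.30 ± 0.043 (limma, adjusted p = 0.000468) and, at 4 h, by 0.40 ± 0.043 (adjusted p = 8.44e-05). Gtf2h4 fell by 0.28 ± 0.073 and 0.43 ± 0.073, with adjusted p of 0.0110 and 0.00109.

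Of the 3 genes of the kinase module, Cdk7 and Ccnh fell. Cdk7 was at 27.6 and 29.6 scaled TPM in WT against 24.7 and 24.6 in TKO at 0 h, and fell by 0.20 ± 0.057 (limma, adjusted p = 0.0147). At 4 h it fell by 0.17 ± 0.057 (adjusted p = 0.0327), and on deposited TPM neither call passed. Its cyclin Ccnh fell by 0.19 and 0.20. Mnat1, the assembly factor of the module, was at -0.013 and -0.11 and passed at neither time. The TFIIH helicase genes Ercc2 and Ercc3 were not in the set. Ercc2 fell by 0.49 ± 0.046 at 0 h (adjusted p = 3.96e-05) and Ercc3 by 0.15 ± 0.044 (adjusted p = 0.0191), while Gtf2h5 did not pass.

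Of the remaining 8 initiation genes, 1 was lower at 0 h and 3 at 4 h, and none was higher. Tbp, the protein that binds the TATA element, was at 52.3 in both WT libraries and at 42.3 and 41.3 scaled TPM in TKO at 0 h, and it fell by 0.32 ± 0.057 (limma, adjusted p = 0.00156). At 4 h Tbp fell by 0.22 ± 0.057 (adjusted p = 0.0101). Gtf2f1, the larger subunit of TFIIF, was at -0.13 ± 0.051 at 0 h (adjusted p = 0.0502) and fell by 0.26 ± 0.051 at 4 h (adjusted p = 0.00202), a call lost on deposited TPM and after quantile normalisation. Gtf2a1 fell by 0.15 at 4 h (adjusted p = 0.0493), with a value above 0 on deposited TPM. Gtf2b, Gtf2e1, Gtf2e2, Gtf2f2 and Gtf2a2 passed at neither time, with values of -0.085 to 0.0094. Of the 13 TAF genes, which encode the partners of TBP in TFIID, 8 were lower and none higher at each time. This is 61.5% lower, against 28.3% of all tested genes at 0 h and 30.4% at 4 h. Taf5 was down by 0.48 and Taf9 by 0.46 at 0 h.

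No gene of P-TEFb itself passed between the genotypes. Cdk9 was at 28.2 and 27.7 scaled TPM in WT against 28.7 and 26.6 in TKO at 0 h, a difference of -0.017 ± 0.060 (limma, adjusted p = 0.829). At 4 h the WT libraries were at 25.0 and 27.0 and the TKO libraries at 28.2 and 29.6, a difference of 0.15 ± 0.060 (adjusted p = 0.0614). Ccnt1 was at -0.052 and 0.14 and Ccnt2 at -0.15 and -0.032 at the respective times. Its inhibitor Hexim1 was at 39.3 and 40.5 in WT against 48.5 and 48.3 in TKO at 0 h, a rise of 0.27 ± 0.076 (adjusted p = 0.0145). At 4 h Hexim1 was at 36.4 and 33.9 in WT against 46.1 and 38.8 in TKO, a rise of 0.26 ± 0.076 (adjusted p = 0.0162). Leaving out 1 library ended the call at 0 h in 3 of 4 cases, with values of 0.25 to 0.27, and at 4 h without TKO replicate 1 or WT replicate 2. Larp7 rose by 0.15 at 0 h (adjusted p = 0.0464), a call lost under 8 of the alternatives, and was at 0.025 at 4 h. Several microRNA genes overlap Larp7 on the other strand. On deposited TPM, 4 of the 5 genes of this group were higher at 4 h in place of 1, where 5035 of all 12481 genes were higher.

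The Paf1 complex, which travels with Pol II and promotes histone marks of active genes, divided. Ctr9, its scaffold, was at 65.5 and 64.3 scaled TPM in WT against 82.1 and 80.4 in TKO at 0 h, a rise of 0.32 ± 0.041 (limma, adjusted p = 0.000225). At 4 h Ctr9 rose by 0.25 ± 0.041 (adjusted p = 0.000765). Paf1 was at 76.5 and 81.6 in WT against 60.7 and 64.4 in TKO at 0 h, a fall of 0.33 ± 0.071 (adjusted p = 0.00394). At 4 h it fell by 0.35 ± 0.071 (adjusted p = 0.00281). Both held without overlap between the genotypes at either time. Leo1, which binds RNA and chromatin, was at -0.12 ± 0.062 at 0 h (adjusted p = 0.142) and fell by 0.38 ± 0.062 at 4 h (adjusted p = 0.000787). Rtf1 fell by 0.17 at 4 h and Cdc73 passed at neither time.

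In the super elongation complex, which brings P-TEFb to paused polymerase, Ell2 was at 19.5 and 19.7 scaled TPM in WT against 25.5 and 26.8 in TKO at 0 h. The rise was 0.40 ± 0.057 (limma, adjusted p = 0.000459) and at 4 h 0.37 ± 0.057 (adjusted p = 0.000580). Aff4, the scaffold that joins the parts, was at 113 and 107 in WT against 130 and 134 in TKO at 0 h, a rise of 0.26 ± 0.049 (adjusted p = 0.00198), and at 4 h of 0.24 ± 0.049 (adjusted p = 0.00303). The TKO libraries were above the WT libraries for both genes at both times. Ell, the paralogue of Ell2, was at -0.14 at 0 h and fell by 0.25 ± 0.062 at 4 h (adjusted p = 0.00795), a call lost on deposited TPM. Of 9 tested genes from the 7SK particle and this complex that were not in the set, 3 were higher and 1 lower at 0 h, with Mllt3, a reader subunit, at a mean of 2.12 scaled TPM in WT and 4.41 in TKO, a rise of 0.79 ± 0.092 (adjusted p = 0.000134).

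Ell2 and Aff4 share a sequence feature of unstable mRNAs that the choice of genes did not use. The letters TTATTTATT, a form of the AU-rich element, were searched on the transcript strand of the 3′ UTR of each gene's longest coding transcript that has one (GENCODE vM1 on NCBIM37, the mm9 build). They occurred in 6 of the 39 genes with such a model (15.4%) and in 858 of 11553 tested genes (7.43%). These shares were not matched for the length of the 3′ UTR. Windows are given for Ell2 and Aff4, which were higher in TKO cells at both times, and for Cdc73, which held 3 copies and differed at neither. The element is in capitals, starting at base 39 of the 3′ UTR of Ell2, at bases 3532 and 6182 of Aff4, and at bases 1425, 1478 and 3005 of Cdc73.
Ell2: aaactaaagcTTATTTATTtaaaattcca
Aff4 copy a: tatttccacaTTATTTATTaaattgatct
Aff4 copy b: atgtacactaTTATTTATTtttactattt
Cdc73 copy a: gaaataattaTTATTTATTttcttaactt
Cdc73 copy b: aaatgggaagTTATTTATTcagatggaat
Cdc73 copy c: aaatcaaatcTTATTTATTtaaggagtat
Of the genes that passed at 0 h with a model, 2 of 6 higher and 2 of 14 lower held the letters, and 2 of the 19 that did not pass. The lower genes were Polr2g and Tbp, so the element was not confined to one direction, and whether any window acts in these cells was not tested. Neither Ell2 nor Aff4 passed between 0 h and 4 h of α-amanitin in either genotype.

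Genes of neighbouring steps were also tested between the genotypes. Over all tested genes 27.8% were higher and 28.3% lower at 0 h, and 29.0% and 30.4% at 4 h. Of 6 genes of DSIF and NELF, the factors that hold paused Pol II, Supt4h1 rose by 0.30 ± 0.083 (limma, adjusted p = 0.0146) and Whsc2, which encodes NELF-A, fell by 0.22 ± 0.043 (adjusted p = 0.00223) at 0 h. At 4 h none of these 6 was higher and 2 were lower, with Supt4h1 at 0.094 (adjusted p = 0.354). Of 13 other elongation genes 3 were higher and 4 lower at 0 h, and 3 higher and 6 lower at 4 h, with Tcea3, a form of TFIIS that rescues backtracked polymerase, at -0.87 ± 0.068 at 0 h (adjusted p = 1.42e-05). Among 30 Mediator genes, which bridge activators and Pol II, 8 were higher and 9 lower at 0 h, and 7 higher and 5 lower at 4 h. At 0 h the Mediator shares of 26.7% and 30.0% lay near those of all tested genes. So did those of the other elongation genes, 23.1% and 30.8%. Of 6 genes for phosphatases of the Pol II tail 4 were higher and 1 lower at each time, with Ctdsp1 at 0.44 ± 0.057 at 0 h (adjusted p = 0.000271).

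Transcript length moved with these counts. Of the 19 members with an mRNA under 2192 bases, the median of the set, 1 was higher and 9 lower at 0 h, and none was higher and 13 lower at 4 h. Over all tested genes with such short mRNAs 24.8% were higher and 31.7% lower at 0 h, and 24.5% and 36.3% at 4 h. Their median difference at 4 h was -0.071, against 0.021 for longer genes. Among the 20 longer members 5 were higher and 9 lower at 4 h, against 32.2% and 28.6% of longer genes. The part of length in the result was not tested.

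α-Amanitin was given to block Pol II and follow the transcripts that remain, so 4 h was compared with 0 h within each genotype. In WT cells, 15 of the 40 genes were higher in scaled TPM at 4 h, and 1, Ccnt1, was lower. Over all tested genes 21.9% were higher and 15.8% lower. No member passed 1.5-fold, which 0.0882% of all genes did upward and 2.01% downward. The median of the set was 0.11 on the log2 scale beside 0.029 over all genes. A higher scaled TPM after a block of transcription does not show more transcripts of a gene. Size factors align the libraries on their typical gene, so a loss shared by all transcripts cannot be seen. Nor is it a larger share of the library, which is what deposited TPM give.

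These calls depended on the scaling and on single libraries. On deposited TPM the median of all genes was -0.11, and 2 of the 40 were higher and 7 lower. There 397 of all 12481 genes were higher and 3145 lower, and 25 members still lay above that median, beside 27 with size factors. Quantile normalisation gave 3 higher and 2 lower, with 16 above the median of all genes, where 1505 of 12483 genes were higher and 1416 lower. The fit on the 4 WT libraries alone gave 10 higher and 4 lower, where 2249 of 12129 genes were higher and 2349 lower. Leaving out WT replicate 1 at 4 h left 0 of the 40 calls, where 103 of all genes were still higher and 276 lower, and leaving out WT replicate 1 at 0 h left 2 higher and 0 lower. Leaving out WT replicate 2 left 7 higher and 1 lower at 0 h, and 8 higher and 0 lower at 4 h. Without either TKO library at 0 h the count was 9 higher and 1 lower. No gene passed under all 19 alternatives.

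**Figure D4:**
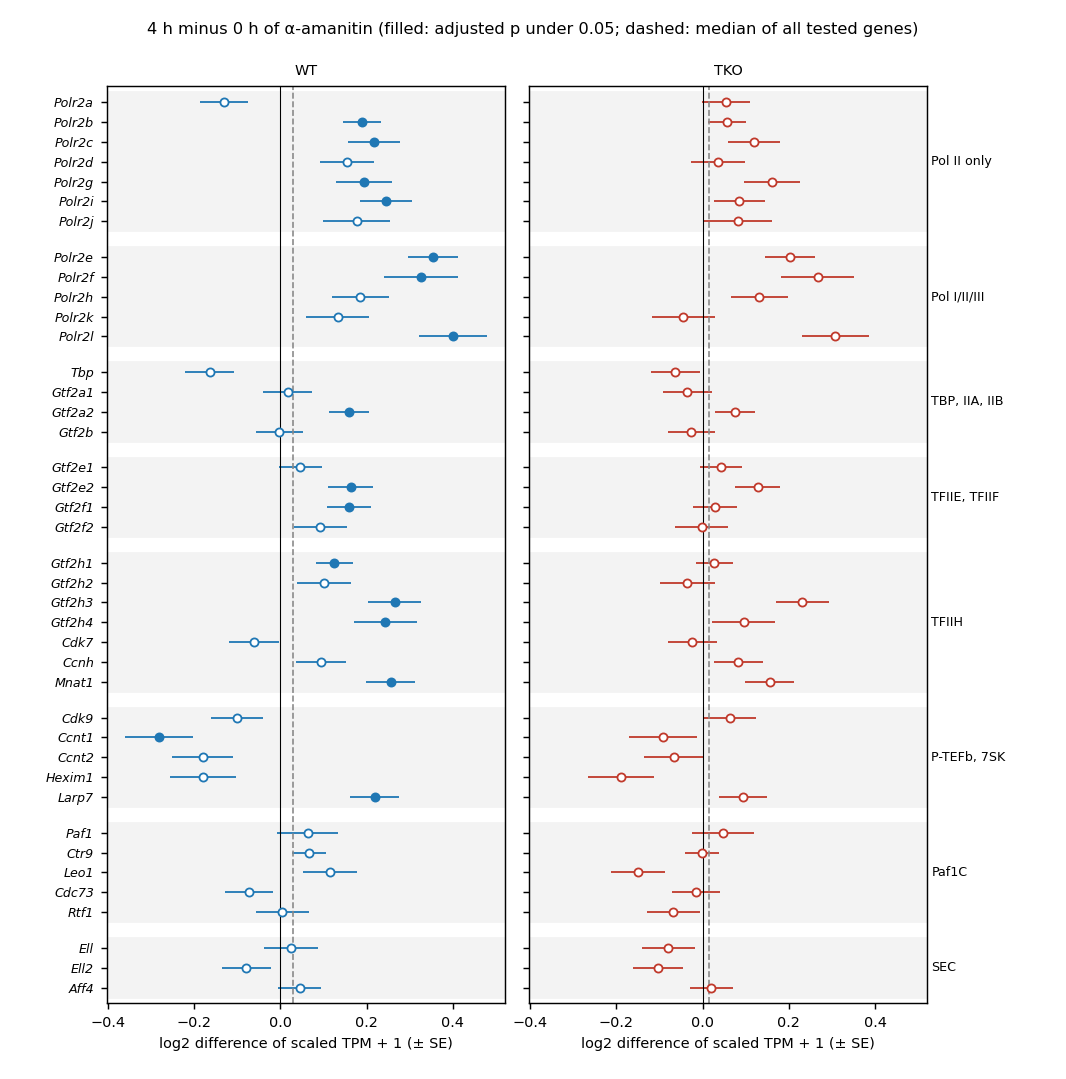
Difference between 4 h and 0 h of α-amanitin (x axis, log2 of scaled TPM + 1, ± SE) for the 40 genes (y axis) in WT (left) and TKO cells (right), where filled points passed an adjusted p of 0.05 and the dashed line is the median of all tested genes. In WT, Polr2l is highest at 0.40 and Ccnt1 lowest at -0.28, and no point is filled in TKO.

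Of the 15 genes that rose in WT cells 7 encode Pol II subunits, and none of the 12 subunits fell. Over all tested genes 21.9% rose and 15.8% fell. On deposited TPM 2 subunits were higher and 1 lower, where 397 of all 12481 genes were higher and 3145 lower. Polr2l was at 18.1 and 18.9 scaled TPM at 0 h and 24.5 and 25.0 at 4 h, a rise of 0.40 ± 0.078 (limma, adjusted p = 0.00831). Polr2e was at 230 and 240 at 0 h and 307 and 294 at 4 h, a rise of 0.35 ± 0.059 (adjusted p = 0.00622). Polr2f rose from 202 and 207 to 256 in both libraries, by 0.33 ± 0.086 (adjusted p = 0.0198). These 3 subunits are shared with Pol I and Pol III. Polr2e, lost only without WT replicate 1 at 4 h, and Polr2l, lost without WT replicate 1 at either time, also passed on deposited TPM and after quantile normalisation, and Polr2f under neither.

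Polr2a, the drug's target, was the 1 subunit with a negative value, at -0.13 ± 0.056 (limma, adjusted p = 0.0936). Polr2i rose by 0.25 ± 0.060 (adjusted p = 0.0153), and Polr2b, Polr2c and Polr2g rose by 0.19 to 0.22. In TFIIH, 4 of 7 genes rose, with Gtf2h3 at 0.26 ± 0.062 (adjusted p = 0.0139) and Mnat1 at 0.26 ± 0.057 (adjusted p = 0.0119). Cdk7 was at -0.061 ± 0.057 (adjusted p = 0.424). Gtf2h1 rose by 0.12 (adjusted p = 0.0494) but was below 0 on deposited TPM and after quantile normalisation. Gtf2a2, Gtf2e2 and Gtf2f1 rose by 0.16 each.

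Of the pause release factors 1 rose and 1 fell. Ccnt1, the main cyclin of P-TEFb, was at 61.2 and 56.9 scaled TPM at 0 h and 48.9 and 47.8 at 4 h, with no overlap, and fell by 0.28 ± 0.079 (limma, adjusted p = 0.0244). The call held under both other scalings and was lost without WT replicate 1 at 0 h or either WT library at 4 h. Ccnt2 was at -0.18 ± 0.071 (adjusted p = 0.0726), Hexim1 at -0.18 ± 0.076 (adjusted p = 0.0937) and Cdk9 at -0.10 ± 0.060 (adjusted p = 0.213). On deposited TPM 4 of the 5 genes of this group were lower, where 3145 of all 12481 genes were lower. Mepce, which caps the 7SK RNA and was not in the set, fell by 0.54 ± 0.070 (adjusted p = 0.00394). Larp7 rose by 0.22 ± 0.056 (adjusted p = 0.0183). In the Paf1 and super elongation complexes none of the 8 genes passed. Paf1 was at 0.063 ± 0.071.

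Length moved with the treatment as well. Among the 19 short members 9 were higher and none lower, with a median of 0.16, and all tested genes with mRNAs under 2192 bases had a median of 0.14, with 34.2% higher and 9.74% lower. The 20 longer members had a median of 0.021, with 5 higher and 1 lower. Longer genes at large had a median of 0.0026, with 18.1% higher and 16.3% lower. Ccnt1 has an mRNA of 7397 bases, Polr2f of 543 and Polr2l of 1650. The part of length in the result was not tested.

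In TKO cells, none of the 40 genes passed in either direction, beside 0% of all genes upward and 0.265% downward. At an unadjusted p under 0.05, 7 members were higher and 2 lower, against 13.7% and 11.2% of all genes, and limma voom on the recovered reads gave 3 higher and 0 lower, where 234 of all 12467 genes were higher and 503 lower. The highest values were those of Polr2l at 0.31 ± 0.078 (limma, adjusted p = 0.115), Polr2f at 0.27 ± 0.086 (adjusted p = 0.134), Gtf2h3 at 0.23 ± 0.062 (adjusted p = 0.12) and Polr2e at 0.20 ± 0.059 (adjusted p = 0.126). Hexim1 had the lowest, at -0.19 ± 0.076 (adjusted p = 0.178), with 48.5 and 48.3 scaled TPM at 0 h and 46.1 and 38.8 at 4 h. Without TKO replicate 1 at 4 h, the library that lay apart from the other treated libraries, 8 members were higher and 2 lower, where 1573 of all 12436 genes were higher and 1224 lower.

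Whether the drug response differed between the genotypes was tested by the interaction. None of the 40 passed, nor did any of the 12467 genes, and at an unadjusted p under 0.05 1 member was higher and 1 lower, beside 4.06% and 3.48% of all genes. Both were genes whose libraries at 4 h lay on opposite sides of those at 0 h in the 2 genotypes. For Polr2a the difference was 0.18 ± 0.079 (limma, adjusted p = 0.662), from -0.13 in WT and 0.054 in TKO. For Leo1 it was -0.27 ± 0.087 (adjusted p = 0.662), from 0.12 in WT and -0.15 in TKO. Leo1 was at 84.5 and 79.5 scaled TPM at 0 h and 91.4 and 86.3 at 4 h in WT, and at 79.2 and 72.1 at 0 h and 70.1 and 65.9 at 4 h in TKO. Below 0 lay 33 of the 40 members, with a median of -0.064 beside -0.015 over all genes.

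The polyA and ribodepleted libraries of untreated WT cells were compared to see how far the measured level of each gene depends on the way RNA was selected. The library kit, the depth and the experiment differ together with the selection, and their effects cannot be told apart. Cell type markers differed as well, so a difference in the cells cannot be told apart from the selection either. Of the 10 ESC markers 8 were higher in polyA and 2 lower, 1 of them Zfp42 at 165 against 517 mean scaled TPM. Of 3 tested epiblast, mesoderm and neural markers 1 was higher and 2 lower. Sox1 was at 13.4 in polyA against 1.81, and Olig2 at 0.013 against 19.1. A separate limma fit of these 5 libraries covered 12481 genes. Of the 40, 18 were higher in polyA and 14 lower, against 40.1% and 40.9% of all genes, and past 1.5-fold 9 were higher and 6 lower, against 18.7% and 16.4%. On deposited TPM the counts were 19 and 9, where 5734 of all 12478 genes were higher and 4197 lower. Under all 15 alternatives 17 of the 40 were higher and 9 lower, and the share of all genes that did so was not counted.

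The order of the Pol II subunits differed between the polyA and the ribodepleted libraries. Polr2k was at 171, 163 and 165 scaled TPM in polyA and 39.7 and 38.4 in ribodepleted libraries, a difference of 2.06 ± 0.038 (limma, adjusted p = 1.14e-09) and a fold of 4.18. Polr2l was at 79.5, 82.8 and 79.0 against 19.1 and 19.99, a difference of 1.99 ± 0.041 (adjusted p = 2.16e-09). Both encode short zinc-binding subunits of all 3 polymerases, but Polr2f, with the shortest mRNA of the 39 with a model, differed by only 0.55 ± 0.041. Polr2a was at 117, 117 and 97.8 in polyA against 46.4 and 43.3, a difference of 1.28 ± 0.078 (adjusted p = 8.83e-07). Polr2b was at 94.6, 90.3 and 93.1 against 206 and 203, a difference of -1.13 ± 0.036 (adjusted p = 2.33e-08). Polr2a thus lay below Polr2b by a wide margin in the ribodepleted libraries and above it in the polyA libraries. The ratio of these transcripts was therefore not fixed across the library groups.

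**Figure D5:**
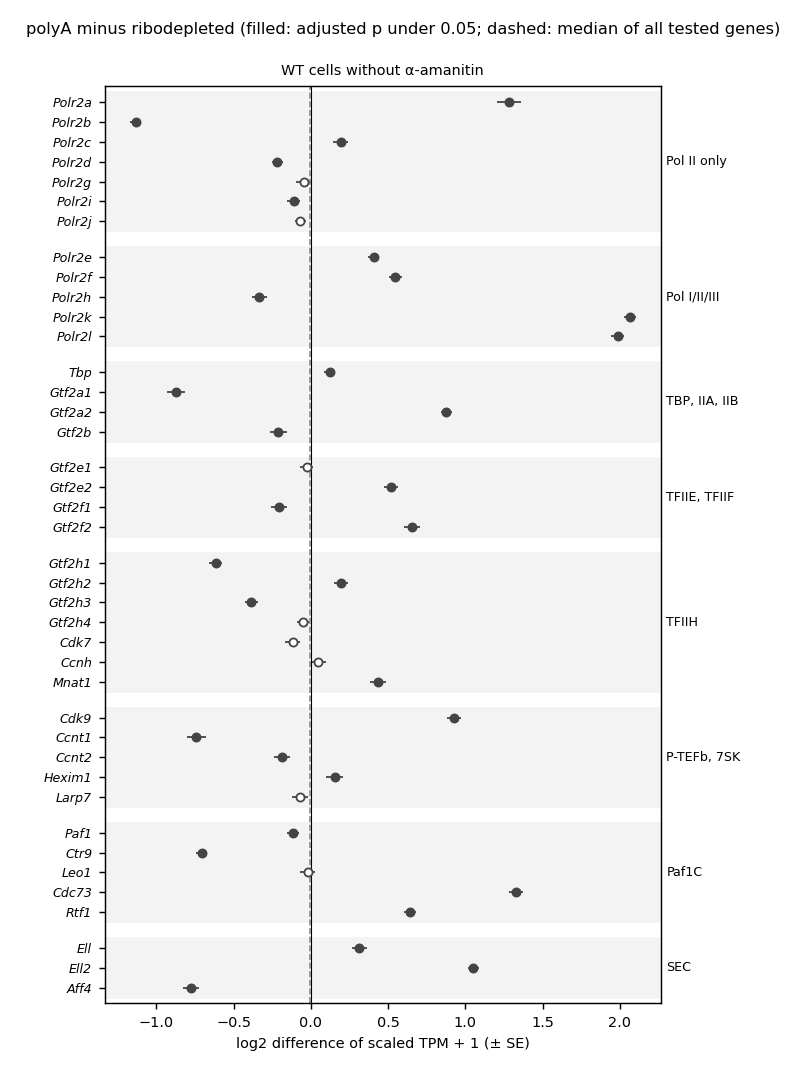
Difference between polyA and ribodepleted libraries of untreated WT cells (x axis, log2 of scaled TPM + 1, ± SE) for the 40 genes (y axis), where filled points passed an adjusted p of 0.05 and the dashed line is the median of all tested genes. Polr2k and Polr2l lie near 2 and Polr2b and Gtf2a1 lowest, at -1.13 and -0.87.

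Other complexes were split in the same comparison. In TFIIA, Gtf2a2 was higher by 0.88 ± 0.034 (limma, adjusted p = 6.78e-08) and Gtf2a1 lower by the same amount, at -0.87 ± 0.059 (adjusted p = 1.61e-06). In P-TEFb, Cdk9 was higher by 0.92 ± 0.046 (adjusted p = 2.81e-07) and Ccnt1 lower, at -0.74 ± 0.063 (adjusted p = 6.83e-06). Cdk9 was at 54.4, 56.8 and 59.5 scaled TPM in polyA and 29.7 and 29.2 in ribodepleted libraries. Ccnt1 was at 37.7, 39.1 and 34.0 against 64.6 and 60.1, so the order of Cdk9 and Ccnt1 was reversed between the library groups. In the Paf1 complex, Cdc73 was higher by 1.33 ± 0.046 (adjusted p = 3.65e-08) and Ctr9 lower, at -0.71 ± 0.036 (adjusted p = 3.20e-07).

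In the super elongation complex, Ell2 was higher in polyA RNA by 1.05 ± 0.038 (limma, adjusted p = 4.53e-08) and Aff4 lower, at -0.78 ± 0.049 (adjusted p = 1.18e-06). Gtf2h1 of TFIIH was lower, at -0.62 ± 0.044 (adjusted p = 2.22e-06). Paf1 at -0.12, Hexim1 at 0.15 and Cdk7 at -0.12 were near 0, and only Cdk7 of these missed the threshold (adjusted p = 0.0526). The higher members had a median mRNA length of 2119 bases and the lower ones of 2704.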

How the data were processed

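RNA-seq of 11 mouse ESC libraries was used. The deposited unit is TPM. The submitters' processing notes name FastQC, Trimmomatic, Bowtie2, HTSeq and mm9, and the authors' methods also name AfterQC and STAR. Versions are not given in the sources used here. Median-of-ratios size factors over genes with mean TPM above 1 scaled the 8 ribodepleted libraries, and limma 3.58.1 (R 4.3.3, lmFit, then eBayes with trend) was run on log2(scaled TPM + 1) with 1 coefficient per group. A fold change on this scale understates that of low genes. Genes with mean scaled TPM above 1 were tested. WT polyA and WT ribodepleted 0 h libraries formed a separate fit. All tests were two-sided with Benjamini-Hochberg adjustment over all tested genes. The limits of 0.05 and 1.5-fold are those of the study, which used DESeq2 on counts, so calls are not equivalent. Fits were tested on simulated data. Whole reads were recovered from TPM steps (tolerance 0.01 reads), and replicates differed beyond counting noise (chi-square per degree of freedom 1.53 to 10.6).

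Always named were Polr2a, Cdk7, Cdk9, Hexim1 and Paf1, then in each contrast up to 6 passed members with the largest rise and 6 with the largest fall, the 2 highest and 2 lowest members per complex, and up to 2 passed genes per pathway list. Other members named were chosen after their values were seen. The members, lists and tests were chosen with earlier results of these data known. Of the 40 genes, 12 overlap another listed gene, in each case on the other strand. These are Polr2b, Polr2c, Polr2h, Polr2i, Polr2j, Tbp, Gtf2f2, Cdk7, Ccnh, Ccnt1, Larp7 and Cdc73. Alternatives were deposited TPM, quantile normalisation, other pseudocounts and filters, a replicate block, no variance trend, fewer libraries, leaving out each library, and, chosen after seeing the data, limma voom on recovered reads and size factors over all genes.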

Additional observations from a re-analysis of the deposited data

Results flagged for a closer look

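Polr2a and Leo1 met a rule for flagging genes whose α-amanitin response had opposite signs in WT and TKO cells. It also required every library at 4 h to lie on one side of every library at 0 h within a genotype. How many of all genes meet this rule was not counted, so it does not set these genes apart. The interaction was 0.18 for Polr2a and -0.27 for Leo1 on the log2 scale. Neither passed (limma, adjusted p = 0.662 for both), so the difference between the genotypes was not shown.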

How the results depend on the processing

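Members are compared with all tested genes by the difference of their medians (log2). The TKO against WT value at 0 h moved to -0.0405 with quantile normalisation, -0.12 without a filter and -0.0721 with a mean above 5 TPM. At 4 h it moved to -0.154 on deposited TPM, -0.0632 with quantile normalisation, -0.169 and -0.144 with pseudocounts of 0.1 and 5 TPM, -0.184 without a filter, -0.128 with a mean above 5 TPM and -0.169 with voom. Quantile normalisation turned the WT value for α-amanitin to -0.0172 and the TKO value to -0.0254. Deposited TPM gave 10 higher and 11 lower members between genotypes at 4 h, 2 higher and 7 lower for α-amanitin in WT, and 9 lower in polyA. For α-amanitin in WT, quantile normalisation gave 3 higher and 2 lower. No filter gave 8 higher and 0 lower (1985 and 1313 of 19470 genes), and no variance trend 8 higher (2208 of 12467 genes). A pseudocount of 5 TPM or a mean above 5 TPM gave 2 lower (1971 of 12467 and 1804 of 9672 genes). There voom and the fit on the contrast's libraries alone gave 4 lower each, and in TKO voom gave 3 higher. Voom and size factors over all genes were chosen after seeing the data.

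Leaving out 1 library gave, for TKO against WT at 0 h, 4 to 7 higher, 9 to 18 lower and a relative median of -0.107 to -0.0646, and at 4 h a relative median of -0.166 to -0.13. For α-amanitin it gave 0 to 18 higher, 0 to 4 lower and a relative median of 0.0582 to 0.121 in WT, and 0 to 8 higher and 0 to 2 lower in TKO. Signs turned for some named genes that had not passed. Cdk9 at 0 h was 0.077 on deposited TPM, and -0.073 to 0.032 when leaving out 1 library. For α-amanitin, Paf1 in WT was -0.095 on deposited TPM and -0.030 with quantile normalisation, and in TKO deposited TPM gave -0.042 for Polr2a, -0.031 for Cdk9 and -0.049 for Paf1. Leaving out 1 library gave -0.074 to 0.028 for Cdk7 and -0.056 to 0.15 for Paf1 in TKO. The interaction was 0.049 for Hexim1 and 0.046 for Paf1 on deposited TPM and 0.047 for Paf1 with quantile normalisation. Without 1 library it was -0.012 to 0.090 for Cdk7, -0.13 to 0.11 for Hexim1 and -0.12 to 0.094 for Paf1. The cause of these shifts was not tested.

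The labels do not say that replicate numbers pair the libraries, and same-numbered libraries deviated together with correlations of only -0.0451 to 0.117. With the replicate number as a block, 7 members were higher and 15 lower between genotypes at 0 h, 5 and 21 at 4 h, 15 and 1 for α-amanitin in WT, none in TKO or in the interaction, and 17 and 13 in polyA. Groups of 2 or 3 libraries limit the precision of every spread.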
